A study of Sus scrofa with 8 samples.

Results

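The Kelch-like and ASB genes encode adaptors that bring proteins to cullin-RING ubiquitin ligases. They were taken by symbol from a table of 25285 pig genes: every gene whose symbol in the deposited table begins with KLHL, KBTBD or ASB and a digit. This gave 48 genes, of which 28 were KLHL, 7 KBTBD and 13 ASB, and no symbol occurred more than once. RNA sequencing was done on primary cells of pig skeletal muscle (strain LYD) grown in vitro. The groups were differentiated female, differentiated male, undifferentiated female and undifferentiated male cells, with 2 libraries in each of the 4 groups and therefore 4 per state. The age of the pigs, the culture medium and the days of differentiation are not given in the sources used here, and the labels do not tell whether a group's replicates are from different animals. The p-values therefore measure only the spread between these libraries, which may be technical.

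Adaptors of this kind choose what a ligase acts on. KLHL and KBTBD proteins carry a BTB domain that binds the scaffold CUL3 and a kelch propeller that holds the bound protein. ASB proteins carry ankyrin repeats that hold the bound protein and a SOCS box that binds elongins B and C and, through them, CUL5 with its RING partner RNF7. Striated muscle is known for several such adaptors, and human mutations in KLHL40 cause nemaline myopathy, a disease of the thin filament.

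Values are FPKM as deposited, which are fragment numbers divided by transcript length in kilobases and by the mapped total, and levels of different genes are compared on this per-length scale. No read counts come with these values, so the depth in reads is unknown. Taken against that of differentiated female replicate 1, the estimated depth came to 1 to 1.61 in the differentiated libraries and 1.68 to 2.28 in the undifferentiated ones, so a gene listed at 0 in undifferentiated cells was read at the greater depth. The labels were checked on muscle and proliferation markers. ACTA1, skeletal actin, averaged 4520 ± 638 FPKM in differentiated and 0.650 ± 0.420 FPKM in undifferentiated cells, and CCND1, cyclin D1, averaged 38.8 ± 10.6 and 901.6 ± 133 FPKM (SD, n = 4 libraries per state). MYH3, embryonic myosin, was at 4410 ± 699 and 4.25 ± 3.11 FPKM, MYOG, myogenin, at 1152 ± 307 and 72.4 ± 39.5 FPKM, and MKI67, a proliferation marker, at 4.48 ± 2.77 and 33.0 ± 8.37 FPKM, differentiated first in each pair. Of 6 fibroblast markers 3 rose, namely COL1A1, COL3A1 and FAP, beside 18.0% of all tested genes. FAP averaged 2.155 FPKM in differentiated and 0.488 FPKM in undifferentiated cells. It was kept only through its differentiated level, so it had to differ. The summed level of the 6 ranged from 431 to 1130 FPKM in differentiated and from 106 to 321 FPKM in undifferentiated libraries. The smooth muscle and pericyte markers summed to 12.5 to 59.9 FPKM in differentiated and 6.31 to 12.1 FPKM in undifferentiated libraries, with MYH11 under 1 FPKM everywhere. Both tested markers of that list rose. ACTG2 had 1.22 to 11.3 FPKM in differentiated libraries and was listed at 0 in undifferentiated ones (limma adjusted p = 0.00207), so a gene kept by its mean over all libraries had to differ here. PDGFRB averaged 21.5 ± 17.2 FPKM in differentiated and 8.84 ± 2.35 FPKM in undifferentiated cells (log2 0.95, limma adjusted p = 0.0431). The endothelial list summed to 2.56 to 7.53 FPKM in differentiated and 2.25 to 6.31 FPKM in undifferentiated libraries. Most of this was PECAM1, at 2.07 to 6.78 and 2.11 to 6.31 FPKM in the same order, which did not pass (limma adjusted p = 0.663). KDR, VWF and TEK of that list, and the immune markers PTPRC and CSF1R, reached 1 FPKM in no library. The immune list summed to 2.43 to 3.69 FPKM in differentiated and 11.9 to 17.0 FPKM in undifferentiated libraries, mostly CD14, which fell, and CD68 reached 1.78 FPKM at most. The Schwann list summed to 2.34 to 3.68 and 4.30 to 7.22 FPKM, with SOX10 under 1 FPKM. S100B of that list averaged 2.04 and 5.02 FPKM in differentiated and undifferentiated cells and fell (limma adjusted p = 0.0187). Of the adipocyte markers only LEP and PLIN1 were found, and they summed to at most 1.70 FPKM in differentiated libraries and to 0 in undifferentiated ones. The part of these other cells in the results was not tested. In bulk RNA, fewer cells of a type and less RNA per cell cannot be told apart.

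The comparison of differentiated with undifferentiated cells asked which adaptors changed with the state of the cultures. A short set of adaptors was far higher in differentiated cells and averaged under 4 FPKM in undifferentiated ones, namely KLHL31, KLHL40 and KLHL30 of the kelch group, ASB5, ASB2, ASB4 and ASB15 of the ASB group, and KBTBD12. Apart from KLHL24 and KLHL42, the other called adaptors moved by less than 1 on the log2 scale. Of the 48 genes, 34 averaged 1 FPKM or more across the 8 libraries and were tested with limma on log2(FPKM + 1). Of these 15 rose, 7 fell and 12 did not pass at an adjusted p of 0.05, adjusted over all 12963 tested genes. Among all tested genes 18.0% rose and 31.9% fell. Of the 34, 7 passed the filter only through differentiated cells, with an undifferentiated mean under 1 FPKM. They were KLHL31, KLHL30, ASB5, ASB2, ASB4, ASB15 and KBTBD12. These 7 had to differ, and the p-values given for them below are description only. Of the other 27 adaptors 8 rose, 7 fell and 12 did not pass. Under median-ratio scaling, which raised the median of all genes by 0.185 on the log2 scale, 17 adaptors rose and 5 fell, and among all genes 3128 rose and 3008 fell in place of 2339 and 4137.

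A rise of at least 1 on the log2 scale was called for 9 adaptors, and a fall of that size for 1, beside 9.99% and 13.1% of all tested genes. Of those 9 rises 7 were the genes that passed the filter only through differentiated cells, and among the other 27 adaptors 2 rises and 1 fall were of that size. The states did not overlap for 22 of the tested adaptors, with the 4 differentiated libraries higher for 14 and lower for 8, against 17.1% and 30.2% of all tested genes. Among the 27 adaptors that passed the filter in both states they were higher for 7 and lower for 8. By family, 7 of 18 tested KLHL genes rose and 5 fell, 2 of 7 KBTBD genes rose and 1 fell, and 6 of 9 tested ASB genes rose and 1 fell. The median log2 fold change was 0.02 for KLHL, -0.19 for KBTBD and 0.45 for ASB, beside -0.18 for all tested genes. The genes that passed only through differentiated cells enter these family counts and medians. Without them 5 of 16 KLHL genes rose and 5 fell (median -0.13), 1 of 6 KBTBD genes rose and 1 fell (median -0.19), and 2 of 5 ASB genes rose and 1 fell (median 0.24). Under median-ratio scaling 8 KLHL genes rose and 3 fell. The log2 fold changes understate changes of genes near 0, because 1 is added to every value.

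**Figure D1:**
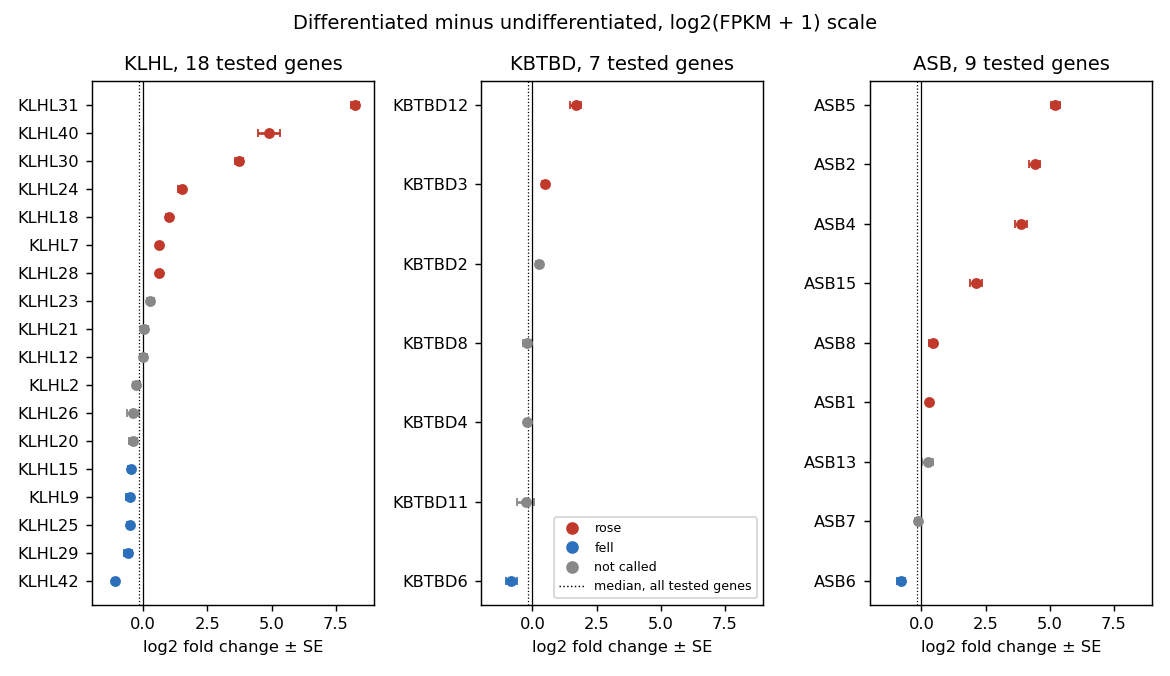
Log2 fold change with its SE, differentiated minus undifferentiated, for the 34 tested adaptors by family, coloured by call (limma, n = 4 libraries per state); the dotted line marks the median of all tested genes, -0.18. KLHL31 stands farthest right at 8.24 and KLHL42 farthest left at -1.09, while most points lie within 1 of the line.

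KLHL31, a kelch protein of striated muscle whose loss in mice causes a myopathy (ENSSSCG00000001487, chromosome 7, 31591685 to 31595296 on Sscrofa10.2), was the most abundant adaptor of differentiated cells. It stood at 310.0 and 478 FPKM in differentiated females and 299.6 and 319 FPKM in differentiated males, against 0 and 0.0989 FPKM in undifferentiated females and 0.222 and 0.266 FPKM in undifferentiated males. The groups lay far apart, with differentiated female replicate 2 above the other 3 differentiated libraries. The log2 fold change was 8.24 ± 0.149 SE (limma adjusted p = 2.21e-06), and the gene's mean ranked at the 96.8th percentile of tested genes in differentiated cells and at the 2.01st in undifferentiated ones.

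KLHL40, which in mice stabilises nebulin and leiomodin 3 (ENSSSCG00000011286, chromosome 13, 28870403 to 28876516), was the only one of the 3 strongly risen KLHL genes with a level of over 1 FPKM in most undifferentiated libraries. It measured 100.1 and 143.6 FPKM in differentiated females and 92.1 and 85.6 FPKM in differentiated males, against 1.45 and 7.42 FPKM in undifferentiated females and 0.965 and 2.59 FPKM in undifferentiated males. Undifferentiated female replicate 2 was the highest of its state for KLHL40. The same library had the highest summed muscle markers of the undifferentiated ones, 165.2 FPKM against 58.0 to 86.1 FPKM in the other 3. The log2 fold change of KLHL40 was 4.91 ± 0.421 SE (limma adjusted p = 0.000361), with the largest SE among the called adaptors.

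KLHL30, a little-studied member of the family (ENSSSCG00000026600, chromosome 15, 152123114 to 152132834), rose to a lower level. It was at 19.0 and 20.2 FPKM in differentiated females and 10.4 and 12.7 FPKM in differentiated males, against 0.141 and 0.527 FPKM in undifferentiated females and 0.0548 and 0.185 FPKM in undifferentiated males (log2 3.72 ± 0.155 SE, limma adjusted p = 2.9e-05). In both states the female mean lay above the male mean, but the contrast of female with male cells did not pass (log2 0.48, limma adjusted p = 0.465, unadjusted p = 0.0205).

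KLHL24, an adaptor known in human skin for acting on keratin 14 (ENSSSCG00000011775, chromosome 13, 131013295 to 131042066), was well expressed in both states and rose. It had 93.1 and 76.6 FPKM in differentiated females and 58.8 and 78.5 FPKM in differentiated males, against 27.3 and 29.7 FPKM in undifferentiated females and 23.9 and 24.9 FPKM in undifferentiated males. The states did not overlap, and the log2 fold change was 1.49 ± 0.124 SE (limma adjusted p = 0.000324). It was the third most abundant adaptor of differentiated cells after KLHL31 and KLHL40. Its neighbour KLHL6, which starts 163 kb away from it and is known in B cells, stayed between 0.342 and 0.739 FPKM in differentiated and between 0.0582 and 0.482 FPKM in undifferentiated libraries.

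The remaining KLHL rises were below 1 on the log2 scale. KLHL18, a human adaptor for the mitotic kinase Aurora A, averaged 15.0 ± 2.31 FPKM in differentiated and 7.03 ± 0.263 FPKM in undifferentiated cells (SD, n = 4, log2 0.99, limma adjusted p = 0.000452). KLHL28 averaged 26.7 ± 0.481 and 17.3 ± 0.781 FPKM in differentiated and undifferentiated cells (log2 0.60, limma adjusted p = 0.00149). KLHL7, mutated in human retinal disease, averaged 11.1 ± 0.592 and 6.84 ± 0.869 FPKM in differentiated and undifferentiated cells (log2 0.63, limma adjusted p = 0.00427). None of these 3 genes overlapped between the states, and their undifferentiated levels were all above 5 FPKM.

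KLHL42, also named KLHDC5, which in human cells brings the microtubule-severing protein katanin (KATNA1) to CUL3 (ENSSSCG00000000545, chromosome 5, 49501050 to 49522927), was the adaptor that fell most. It stood at 5.21 and 5.32 FPKM in differentiated females and 6.56 and 5.37 FPKM in differentiated males, against 12.3 and 13.0 FPKM in undifferentiated females and 13.5 and 13.2 FPKM in undifferentiated males (log2 -1.09 ± 0.0967 SE, limma adjusted p = 0.000406). The states were apart in every library. The other 4 falls of the KLHL family were smaller. KLHL15, known to act on a regulatory subunit of phosphatase PP2A, averaged 10.4 ± 1.70 FPKM in differentiated and 15.0 ± 2.26 FPKM in undifferentiated cells (SD, n = 4, log2 -0.49, limma adjusted p = 0.00865). KLHL25, an adaptor for the translation repressor 4E-BP1 (EIF4EBP1), averaged 3.55 ± 0.339 and 5.61 ± 0.640 FPKM in differentiated and undifferentiated cells (log2 -0.53, limma adjusted p = 0.0101).

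The calls of the last 2 falls depended on single libraries or on scaling. KLHL9, which acts on Aurora B in dividing human cells, averaged 20.2 ± 2.86 FPKM in differentiated and 29.4 ± 2.63 FPKM in undifferentiated cells (log2 -0.53, limma adjusted p = 0.0185). KLHL29 averaged 8.09 ± 1.21 and 12.7 ± 2.18 FPKM in differentiated and undifferentiated cells (log2 -0.58, limma adjusted p = 0.0208). For both the libraries of the states did not overlap. Each call ended under 5 of 17 alternatives: the limma adjusted p ranged over the alternatives from 0.00656 to 0.0663 for KLHL9 and from 0.0109 to 0.0706 for KLHL29. Median-ratio scaling ended both calls, as did leaving out undifferentiated female replicate 1 or undifferentiated male replicate 1. KLHL9 lies inside the span of another gene on the other strand and has a close paralogue, KLHL13, and how reads shared by the pair were assigned is not given in the sources used here.

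The other 6 tested KLHL genes did not pass, with log2 fold changes between -0.40 and 0.28. They were KLHL2, KLHL12, KLHL20, KLHL21, KLHL23 and KLHL26, whose means lay between 4.34 and 16.5 FPKM in differentiated and between 6.07 and 19.1 FPKM in undifferentiated cells. KLHL12, an adaptor for the COPII coat protein SEC31A, averaged 16.5 ± 2.82 and 16.4 ± 2.34 FPKM in differentiated and undifferentiated cells (log2 0.00, limma adjusted p = 0.997). Its identity is uncertain, since an Ensembl identifier table names that gene ADIPOR1 and gives the name KLHL12 to a neighbour called RABIF in the deposited table. That neighbour (ENSSSCG00000022787) had 10.7, 11.7, 15.8 and 17.0 FPKM in differentiated libraries against 18.2, 18.8, 19.3 and 26.1 FPKM in undifferentiated ones, and it fell (log2 -0.56 ± 0.116 SE, limma adjusted p = 0.00918). KLHL23 passed without differentiated male replicate 1 and under median-ratio scaling (limma adjusted p 0.0239 to 0.291 over the alternatives), and KLHL20 without differentiated female replicate 1 (0.0475 to 0.307).

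A further 10 KLHL genes were not tested because their mean was under 1 FPKM: KLHL1, KLHL3, KLHL4, KLHL6, KLHL14, KLHL17, KLHL32, KLHL33, KLHL35 and KLHL38. KLHL33 was above 0 only in differentiated female replicate 1 and KLHL1 only in differentiated female replicate 2. KLHL38, a gene known from striated muscle, was uneven, with 4.34, 0, 0.824 and 1.13 FPKM in differentiated libraries and 0.791 FPKM in undifferentiated male replicate 1, and it was listed at 0 in the other 3 undifferentiated libraries. Fitted without the filter, none of these 10 KLHL genes passed (limma adjusted p 0.0786 to 0.703).

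**Figure D2:**
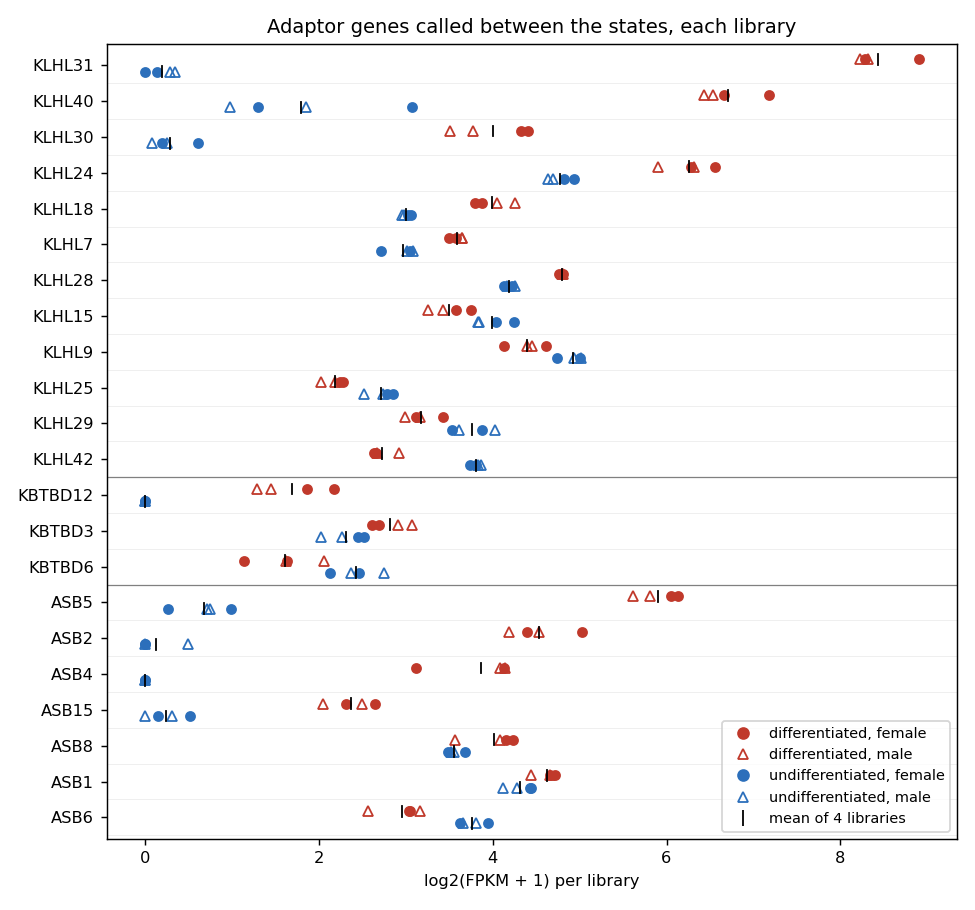
Log2(FPKM + 1) of the 22 called adaptors in each of the 8 libraries, with circles for females, triangles for males, red for differentiated and blue for undifferentiated cells, and a short black bar at the mean of each state. KLHL31, KLHL40, KLHL30, ASB5, ASB2, ASB4, ASB15 and KBTBD12 show wide gaps between the states, while ASB8 shows overlap of its libraries.

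The ASB family held genes near 0 in undifferentiated cells beside genes expressed in both states. ASB5, an ankyrin protein of skeletal muscle (ENSSSCG00000030395, chromosome 15, 44410073 to 44464546), was the most abundant ASB gene of differentiated cells. It had 68.9 and 65.5 FPKM in differentiated females and 55.2 and 48.0 FPKM in differentiated males, against 0.204 and 0.990 FPKM in undifferentiated females and 0.680 and 0.643 FPKM in undifferentiated males. Both female libraries lay above both male ones in differentiated cells, while the undifferentiated libraries showed no such order. The log2 fold change was 5.22 ± 0.173 SE (limma adjusted p = 1.23e-05).

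ASB2, which brings filamins to degradation and is made in muscle and blood cells (ENSSSCG00000002467, chromosome 7, 122012985 to 122043651), was near 0 in undifferentiated cells. It stood at 20.1 and 31.6 FPKM in differentiated females and 22.2 and 17.3 FPKM in differentiated males, against 0.408 FPKM in undifferentiated male replicate 1 and a listed 0 in the other 3 undifferentiated libraries (log2 4.41 ± 0.205 SE, limma adjusted p = 4.01e-05). ASB4, known from vascular and hypothalamic cells (ENSSSCG00000015333, chromosome 9, 82488676 to 82579652), had 7.67 and 16.4 FPKM in differentiated females and 16.0 and 16.7 FPKM in differentiated males and was listed at 0 in all 4 undifferentiated libraries (limma adjusted p = 0.000113). Differentiated female replicate 1, the library of least estimated depth, lay well below the other 3. No fold is given for ASB4, since 1 state is listed at 0.

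ASB15, known in cattle and other species as a muscle ASB gene (ENSSSCG00000016606, chromosome 18, 25425505 to 25444223), rose to a lower level. It had 5.23 and 3.97 FPKM in differentiated females and 4.65 and 3.13 FPKM in differentiated males, against 0.108 and 0.428 FPKM in undifferentiated females and 0.242 and 0 FPKM in undifferentiated males (log2 2.13 ± 0.219 SE, limma adjusted p = 0.000662). The 4 strongly risen ASB genes thus ranked ASB5, ASB2, ASB4 and ASB15 by mean in differentiated cells. The libraries of ASB5 did not overlap those of ASB2, and those of ASB15 lay below those of ASB4, while ASB2 and ASB4 were separated by little, at 17.3 FPKM for the lowest library of ASB2 and 16.7 FPKM for the highest of ASB4.

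ASB1, ASB8 and ASB6 were expressed in both states. ASB1 averaged 23.7 ± 1.98 FPKM in differentiated and 19.0 ± 2.08 FPKM in undifferentiated cells (SD, n = 4, log2 0.30, limma adjusted p = 0.0335). ASB8 averaged 15.4 ± 3.10 and 10.8 ± 0.711 FPKM in differentiated and undifferentiated cells (log2 0.45, limma adjusted p = 0.034), with overlapping libraries. Neither rise was firm: the ASB1 call ended under 7 of 17 alternatives and the ASB8 call under 9, with limma adjusted p over the alternatives of 0.00787 to 0.0913 for ASB1 and 0.0103 to 0.102 for ASB8. Both calls ended with a replicate block (limma adjusted p = 0.0593 for ASB1 and 0.0524 for ASB8) and without any 1 of both differentiated female libraries, differentiated male replicate 1, both undifferentiated female libraries or undifferentiated male replicate 1. The ASB8 call also ended without undifferentiated male replicate 2 and without the filter on low values.

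ASB6, which acts on an adaptor of insulin signalling in fat cells (SH2B2), was the only ASB gene that fell (ENSSSCG00000005679, chromosome 1, 303696543 to 303701842). It had 7.20 and 7.30 FPKM in differentiated females and 7.95 and 4.91 FPKM in differentiated males, against 11.3 and 14.4 FPKM in undifferentiated females and 13.0 and 11.6 FPKM in undifferentiated males (log2 -0.80 ± 0.162 SE, limma adjusted p = 0.00819). The states were apart, with differentiated male replicate 2 the lowest library. ASB7 averaged 5.42 ± 0.441 and 6.00 ± 0.541 FPKM in differentiated and undifferentiated cells, and ASB13 averaged 4.41 ± 1.06 and 3.54 ± 0.714 FPKM in the same order; neither passed (limma adjusted p = 0.371 for ASB7 and 0.372 for ASB13). The direction of ASB7 turned under median-ratio scaling and quantile normalization.

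The 4 ASB genes below the filter were ASB9, ASB10, ASB11 and ASB18. ASB10 was at 0.304 and 0.539 FPKM in differentiated females and 0.191 and 1.20 FPKM in differentiated males, and listed at 0 in all undifferentiated libraries. ASB9, which targets brain creatine kinase in human cells, was at 0.376 and 0.535 FPKM in differentiated females and listed at 0 in the 6 other libraries. ASB11 lies 14.8 kb from ASB9 on the X chromosome and reached 0.648 FPKM at most, in undifferentiated female replicate 2. ASB18 was above 0 in differentiated female replicate 2 only. Fitted without the filter, ASB9 passed (limma adjusted p = 0.0317) and the other 3 did not (0.0672 to 0.5), and every value of ASB9 was under 1 FPKM.

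KBTBD12 (ENSSSCG00000011622, chromosome 13, 79782367 to 79835088) was the only KBTBD gene that passed the filter only through differentiated cells, so it had to differ. It had 2.65 and 3.52 FPKM in differentiated females and 1.44 and 1.73 FPKM in differentiated males and was listed at 0 in all 4 undifferentiated libraries (limma adjusted p = 0.00139), with no fold given. KBTBD3 averaged 6.11 ± 1.05 FPKM in differentiated and 4.02 ± 0.750 FPKM in undifferentiated cells (SD, n = 4, log2 0.50, limma adjusted p = 0.0123), and this call ended with a replicate block (0.0731). KBTBD6, which with its paralogue KBTBD7 brings the RAC1 activator TIAM1 to CUL3, had 1.19 and 2.11 FPKM in differentiated females and 3.17 and 2.07 FPKM in differentiated males, against 3.37 and 4.51 FPKM in undifferentiated females and 5.71 and 4.17 FPKM in undifferentiated males (log2 -0.81 ± 0.206 SE, limma adjusted p = 0.0187). Its libraries did not overlap between the states, though the call ended without differentiated female replicate 1, differentiated male replicate 2, undifferentiated female replicate 2 or undifferentiated male replicate 1 (limma adjusted p 0.00676 to 0.0624 over the alternatives).

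KBTBD2, which keeps the PI3-kinase subunit PIK3R1 low, was the most abundant KBTBD gene in every library. It stood at 28.7 and 20.4 FPKM in differentiated females and 25.2 and 28.8 FPKM in differentiated males, against 20.9 and 21.4 FPKM in undifferentiated females and 20.6 and 21.4 FPKM in undifferentiated males. Differentiated female replicate 2 lay below the undifferentiated libraries and the other 3 above them, and the gene did not pass (log2 0.27 ± 0.126 SE, limma adjusted p = 0.126). It passed under both other scalings and without differentiated female replicate 2 (limma adjusted p 0.0167 to 0.271 over the alternatives). KBTBD4, KBTBD8 and KBTBD11 did not pass either, with log2 fold changes of -0.19, -0.19 and -0.25, although all 4 differentiated libraries of KBTBD4 lay below the undifferentiated ones. KBTBD4 overlaps NDUFS3 by 227 bp, and its sign turned under median-ratio scaling.

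Summed by family, the change was carried by few genes. The 28 KLHL genes summed to 725 ± 117 FPKM in differentiated and 215.2 ± 7.26 FPKM in undifferentiated cells (SD, n = 4). The 4 KLHL genes that rose by at least 1 on the log2 scale made 73.1% to 80.4% of that sum in differentiated and 12.0% to 17.1% in undifferentiated libraries, and the other 24 summed to 176 ± 9.62 and 185.3 ± 5.37 FPKM in differentiated and undifferentiated cells. The 13 ASB genes summed to 157.5 ± 18.4 FPKM in differentiated and 53.1 ± 3.47 FPKM in undifferentiated cells, with 62.9% to 65.9% and 0.582% to 2.67% from the 4 that rose by at least 1. The 7 KBTBD genes summed to 52.9 ± 4.83 and 48.9 ± 1.44 FPKM in differentiated and undifferentiated cells. These sums describe genes sorted by their own change and carry no test.

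**Figure D3:**
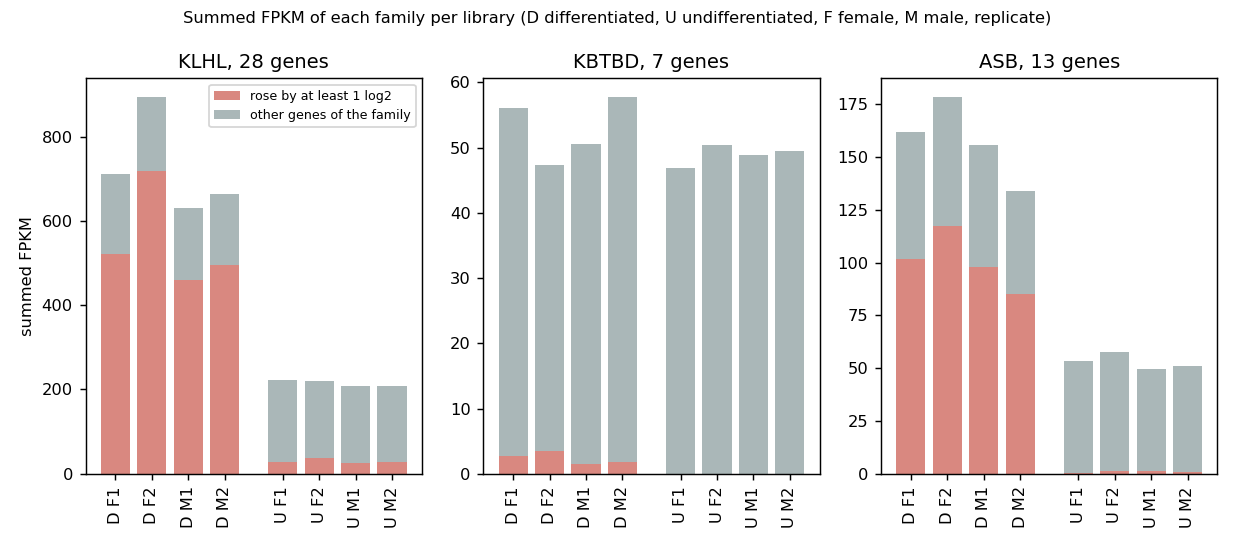
Summed FPKM of the KLHL, KBTBD and ASB genes in each library, differentiated left of undifferentiated, with the genes that rose by at least 1 on the log2 scale in red and the others in grey. The red parts make 73.1% to 80.4% of the KLHL bars of differentiated cells.

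The leading gene of each family differed between the states in the KLHL and ASB families. KLHL31 alone made 43.5% to 53.5% of the KLHL sum in differentiated libraries, whereas in undifferentiated ones KLHL9 led in 3 libraries and KLHL24 in female replicate 2, with 13.5% to 15.0%. ASB5 made 35.4% to 42.6% of the ASB sum in differentiated libraries, and ASB1 led in all undifferentiated ones with 32.8% to 38.4%. KBTBD2 led the KBTBD genes in both states. Between 33 and 37 of the 48 genes reached 1 FPKM in differentiated libraries, and 27 or 28 in undifferentiated ones.

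The effect of state was then taken within each sex. In females 12 adaptors rose and 3 fell, against 12.5% and 23.3% of all tested genes, and in males 13 rose and 4 fell, against 12.9% and 20.1%. Among the 27 adaptors that passed the filter in both states, 5 rose and 3 fell in females, and 6 rose and 4 fell in males. All 9 genes that rose by at least 1 on the log2 scale rose in each sex, and KLHL42 fell in each. Of those 9 genes 7 passed the filter only through differentiated cells, so they had to differ. The difference of the effect between the sexes passed for 0 adaptors (limma, 1 at an unadjusted p under 0.05), against 0.0231% of all tested genes. The 1 gene was KBTBD3, with log2 fold changes of 0.16 in females and 0.85 in males (unadjusted p = 0.0224, limma adjusted p = 0.804).

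Female against male cells, averaged over the states, gave 0 called adaptors (limma, 3 at an unadjusted p under 0.05), against 0.0849% of all tested genes. The 3 were KLHL21, KLHL30 and KLHL15. KLHL21, which acts on Aurora B in cytokinesis and lies inside another gene on the other strand, had 17.6 and 23.9 FPKM in differentiated females and 11.7 and 11.6 FPKM in differentiated males, and 18.3 and 16.6 FPKM in undifferentiated females and 11.4 and 14.8 FPKM in undifferentiated males. Female libraries lay above male ones in both states (log2 0.58, limma adjusted p = 0.376, unadjusted p = 0.00499). The X-linked KLHL15 had a log2 difference of 0.32, female minus male (limma adjusted p = 0.462, unadjusted p = 0.0191).

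Among the 9 genes that rose by at least 1, differentiated female replicate 2 was the highest differentiated library for 5 and differentiated female replicate 1 for 3. The lowest was differentiated male replicate 1 for 4 and differentiated male replicate 2 for 4. The summed muscle markers had the same order of sexes, with 15079.9 and 16720.2 FPKM in differentiated females and 11574.1 and 14163.2 FPKM in differentiated males. The summed fibroblast markers had the reverse order, with 465 and 431 FPKM in differentiated females and 1130 and 817 FPKM in differentiated males. Of that list COL1A1 had 164.8 and 177.7 FPKM in differentiated females and 782.7 and 499.5 FPKM in differentiated males. COL3A1 differed less, at 295.8 and 247.4 against 311.9 and 306.7 FPKM. PDGFRA, DCN and LUM were low and higher in both male libraries, while FAP overlapped between the sexes. The part of the muscle and fibroblast markers in the difference was not tested.

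The partners that the adaptors work with were taken next. Of 28 genes for cullins, their RING and elongin partners, neddylation and the COP9 signalosome, 8 rose, 3 fell and 17 did not pass, with a median log2 fold change of 0.18, beside 18.0% rises and 31.9% falls among all tested genes. Under median-ratio scaling 17 rose and 3 fell, beside 24.1% and 23.2% of all tested genes. CUL3, the scaffold of the kelch adaptors, averaged 24.9 ± 2.64 FPKM in differentiated and 23.3 ± 1.22 FPKM in undifferentiated cells (log2 0.09, limma adjusted p = 0.374). CUL5, the scaffold of the ASB adaptors, averaged 37.1 ± 1.81 and 26.9 ± 2.14 FPKM in differentiated and undifferentiated cells and rose (log2 0.45, limma adjusted p = 0.00821), as did CUL2 (log2 0.47). RNF7, the RING partner of CUL5, averaged 50.1 ± 6.13 and 25.4 ± 2.27 FPKM in differentiated and undifferentiated cells (log2 0.95, limma adjusted p = 0.00137), while TCEB2, elongin B, fell (log2 -0.52, limma adjusted p = 0.00259).

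The exchange factors of cullins moved in opposite directions. CAND2, the form enriched in muscle, had 21.2 and 24.5 FPKM in differentiated females and 14.9 and 16.7 FPKM in differentiated males, against 2.19 and 3.31 FPKM in undifferentiated females and 1.94 and 2.43 FPKM in undifferentiated males (log2 2.54 ± 0.139 SE, limma adjusted p = 7.54e-05). CAND1, the form made in most cells, averaged 5.38 ± 1.07 and 11.7 ± 1.77 FPKM in differentiated and undifferentiated cells (log2 -1.002, limma adjusted p = 0.00422). UBA3, a subunit of the enzyme that activates NEDD8, averaged 51.6 ± 3.19 and 22.5 ± 1.33 FPKM in differentiated and undifferentiated cells and rose (log2 1.16, limma adjusted p = 0.000205), whereas NEDD8 itself did not pass (log2 -0.05). CUL4A rose (log2 0.67) and CUL4B fell (log2 -0.87), and of the COP9 signalosome COPS8 (log2 0.38) and COPS7A (log2 0.29) rose, calls that ended under 5 and 2 of 17 alternatives (limma adjusted p up to 0.0835 and 0.0589). The CUL2 call ended without undifferentiated female replicate 2 (limma adjusted p 0.00336 to 0.0509 over the alternatives).

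Other adaptors with a BTB or SOCS box gave 7 rises and 6 falls among 27 tested, with a median log2 fold change of 0.06, and 9 rises and 4 falls under median-ratio scaling. The shares over all tested genes were 18.0% and 31.9%, and 24.1% and 23.2% under that scaling. ENC1, a BTB-kelch protein outside the KLHL naming, averaged 18.4 ± 3.79 FPKM in differentiated and 54.2 ± 15.1 FPKM in undifferentiated cells (log2 -1.48, limma adjusted p = 0.00166), and IVNS1ABP fell as well (log2 -0.65). Of the other BTB adaptors KCTD5 (log2 1.16) and TNFAIP1 (log2 1.00) rose. SPOPL (log2 -0.40, limma adjusted p = 0.048) and KCTD10 (log2 -0.27, 0.0429) fell, calls that ended under 12 and 11 of 17 alternatives (0.0372 to 0.261 and 0.0239 to 0.536). Of the SOCS box proteins outside the ASB family SOCS1, a brake on cytokine signalling, averaged 8.34 ± 3.72 and 1.10 ± 0.0731 FPKM in differentiated and undifferentiated cells (log2 2.04, limma adjusted p = 0.00451). SOCS7 rose (log2 1.10) and WSB1 fell (log2 -0.96).

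Genes listed from the literature for proteins that kelch or ASB adaptors bind or target moved in both directions: 7 rose, 13 fell and 4 did not pass of 24. The median log2 fold change was -0.36, and 8 rose and 11 fell under median-ratio scaling. Some of the 24 belong to adaptors outside the 48 genes, namely NRAP to KLHL41, PLK1 to KLHL22 and TNFRSF1B to ASB3. RHOA was listed without an adaptor. Among all tested genes 18.0% rose and 31.9% fell, and 24.1% rose and 23.2% fell under that scaling. LMOD3, leiomodin 3, which KLHL40 binds, had 52.1 and 62.2 FPKM in differentiated females and 55.4 and 48.3 FPKM in differentiated males, against 0.0726 to 0.264 FPKM in undifferentiated libraries (log2 5.58 ± 0.111 SE, limma adjusted p = 2.56e-06). LMOD3 passed the filter only through differentiated cells, so it had to differ. NEB, nebulin, the giant protein of the thin filament and another partner of KLHL40, averaged 781 ± 78.7 and 23.3 ± 8.57 FPKM in differentiated and undifferentiated cells (log2 5.07, limma adjusted p = 5.18e-05). The largest falls were TNFRSF1B (log2 -3.10), a cytokine receptor reported as a target of ASB3, which is not among the 48 genes, and TIAM1 (log2 -2.79), the target of KBTBD6. FLNC, the filamin of muscle, averaged 477.6 ± 62.5 and 270.8 ± 26.8 FPKM in differentiated and undifferentiated cells and rose (log2 0.81, limma adjusted p = 0.000899). Here FLNC, CUL3, CUL5 and NEDD8 were named after their values were seen.

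**Figure D4:**
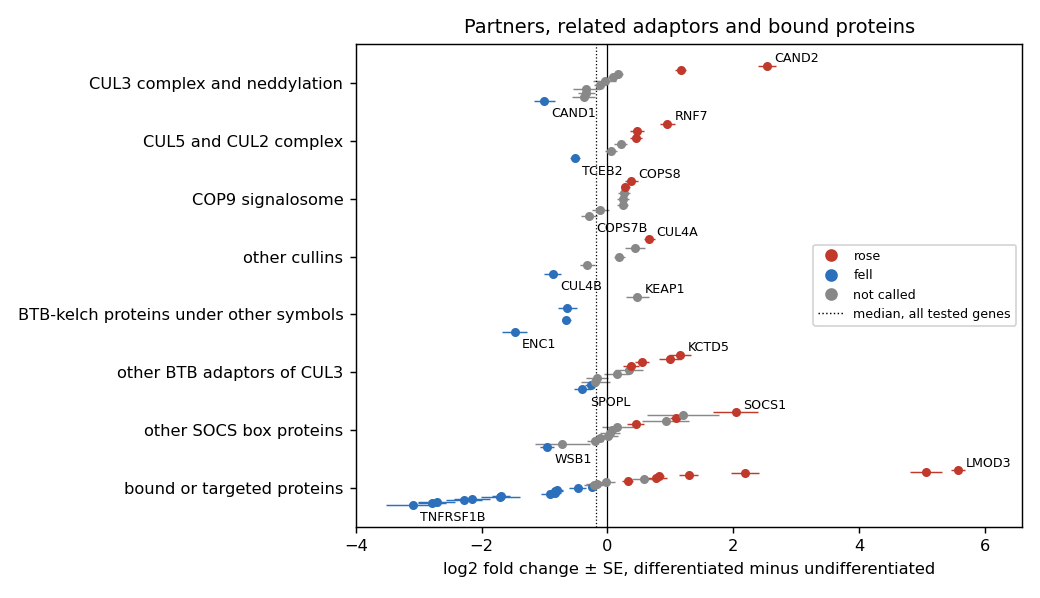
Log2 fold change with its SE, differentiated minus undifferentiated, for cullin partners, related adaptors and bound proteins, 1 point per gene coloured by call, with the lowest and highest gene of each list named; the dotted line marks the median of all tested genes. CAND2 at 2.54 and CAND1 at -1.002 lie on opposite sides within the CUL3 list, and LMOD3 at 5.58 and TNFRSF1B at -3.10 bound the list of bound proteins.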

How the data were processed

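Per the labels' protocols, RNA was taken up in TRIzol and libraries were made with a stranded low-input total RNA kit, while the molecule is labelled polyA RNA. The authors deposited FPKM per gene; cutadapt 1.6, TopHat2 2.0.12.1, Cufflinks 2.2.1 and the build Sscrofa10.2 are named in the submitters' processing notes, without settings. Relative depth was estimated from the commonest ratio of values below 1 FPKM between libraries.

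Values were taken as log2(FPKM + 1), and 12963 genes averaging 1 FPKM or more were tested with limma 3.58.1 in R 4.3.3 (1 mean per group of state and sex, mean-variance trend, 4 residual and 2.09 prior degrees of freedom). P-values were two-sided, adjusted by Benjamini and Hochberg over all tested genes and called under 0.05; ± after FPKM is the SD. The fit was tested on simulated data with 200 changed genes. Members and gene lists were chosen with earlier results of these data known. Per-library values were given for genes changed by at least 1 on the log2 scale, and others were chosen after their values were seen. Alternatives were a pseudocount of 0.1, no filter, median-ratio scaling, quantile normalization, genes under 300 bp left out, a replicate block, sex ignored, no trend, repeated symbols summed and each library left out. A widening of the families by an identifier table was added after seeing the data. Sequences were not analysed here. Some genes of the lists are counted but not reported by name here.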

Additional observations from a re-analysis of the deposited data

Results flagged for a closer look

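Of 83 sets of 4 libraries, 1 adaptor in 1 state each, 3 held a library far from the other 3 by Dixon's criterion, which chance alone reaches in about 1 set in 20. KLHL31 stood at 478 FPKM in differentiated female replicate 2, against 299.6 to 319 FPKM in the other differentiated libraries. ASB4 stood at 7.67 FPKM in differentiated female replicate 1, against 16.0 to 16.7 FPKM in the others. KLHL42 stood at 6.56 FPKM in differentiated male replicate 1, against 5.21 to 5.37 FPKM in the others, and the proliferation markers summed to 112.5 FPKM in that library against 48.9 to 54.1 FPKM in the other 3. All 3 genes kept their direction without any 1 of the 8 libraries. KLHL31 and ASB4 passed the filter only through differentiated cells, so they had to differ.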

How the results depend on the processing

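Of the 22 called adaptors, 16 were called under all 17 alternatives, among them all 9 that rose by at least 1 on the log2 scale. Of those 9, 7 passed the filter only through differentiated cells and had to differ, so their calls are no sign of stability. The rest of those 9 were KLHL40 and KLHL24. The calls of ASB1, ASB8, KBTBD3, KBTBD6, KLHL9 and KLHL29 ended under at least 1 alternative. KBTBD2, KLHL20 and KLHL23 gained a call under at least 1, and the cause was not tested. Median-ratio scaling gave 3 KLHL falls and 17 rises among cullin partners, and quantile normalization 16. With a replicate block by sex and number, 12 adaptors rose, 7 fell, and 1 KBTBD gene rose. Among all tested genes 2267 rose and 4061 fell with that block, in place of 2339 and 4137. Same-numbered libraries correlated at 0.0684 in females and -0.0264 in males after removal of group means. With 2 libraries per group each sex gives only 1 such comparison, so this cannot tell whether the numbers mark pairs. Without 1 library at a time, adaptors that rose were 13 to 15 and that fell 4 to 7, KLHL falls 3 to 6, KBTBD falls 0 to 1, and falls among related adaptors 3 to 5. The fewest adaptor falls came without undifferentiated male replicate 1. Among all tested genes, too, fewer rose and fewer fell whichever library was left out, so such losses are not particular to the adaptors. KBTBD falls were 0 without differentiated female replicate 1, differentiated male replicate 2, undifferentiated female replicate 2 or undifferentiated male replicate 1; KLHL falls were 3 without undifferentiated female replicate 1 or undifferentiated male replicate 1. Uncalled values turned sign for ASB7 under median-ratio scaling (0.0549) and quantile normalization (0.0179), for KBTBD4 under median-ratio scaling (0.0023), for KLHL21 (-0.0672 to 0.142) and KLHL12 (-0.105 to 0.106) without single libraries. A depth that is unknown in reads leaves values under 1 FPKM imprecise.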

Other observations

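An Ensembl identifier table names 8 further genes KLHL or ASB that the deposited table leaves unnamed or calls otherwise. All of them but second genes named KLHL17 and KLHL32 were tested, on top of the 34. Counting them gave 16 rises and 9 falls in all, a count added after seeing the data. Among all tested genes 18.0% rose and 31.9% fell. The 16 rises include the 7 genes that passed the filter only through differentiated cells. KLHL12 enters under both of the genes given that name, of which the one called RABIF fell. KLHL13, the close paralogue of KLHL9 (ENSSSCG00000012637, X chromosome, 115091104 to 115105099), had 6.30 and 7.33 FPKM in differentiated females and 5.79 and 6.75 FPKM in differentiated males, against 1.82 and 2.11 FPKM in undifferentiated females and 2.70 and 1.23 FPKM in undifferentiated males, and it rose (log2 1.37 ± 0.193 SE, limma adjusted p = 0.00208) where KLHL9 fell. KLHL5 (ENSSSCG00000008787, chromosome 8) had 3.37, 4.02, 4.51 and 1.80 FPKM in differentiated libraries against 6.76, 7.88, 8.70 and 9.05 FPKM in undifferentiated ones and fell (log2 -1.08 ± 0.226 SE, limma adjusted p = 0.00943). KLHL8 had 32.6 and 14.7 FPKM in differentiated females and 6.96 and 8.42 FPKM in differentiated males, against a mean of 9.45 FPKM in undifferentiated libraries, and did not pass (limma adjusted p = 0.171). ASB3 and KLHL22 did not pass (limma adjusted p = 0.835 and 0.153), and second genes named KLHL17 and KLHL32 were under 1 FPKM in every library.

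Among the 48 adaptors 8 overlap another gene of the table. KLHL9 lies whole inside the span of a gene called IFN-OMEGA-2 on the other strand, which averaged 0.865 FPKM in differentiated cells and was listed at 0 in undifferentiated ones. KLHL21 lies whole inside ZBTB48 on the other strand, which averaged 3.10 and 3.09 FPKM in differentiated and undifferentiated cells. KBTBD4 shares 227 bp with NDUFS3, which averaged 51.1 and 37.1 FPKM in differentiated and undifferentiated cells and rose. Whether strand was used in counting is not given in the sources used here.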
